A study of Homo sapiens with 4 samples.

Results

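A group of 10 genes of the interleukin-6 (IL-6) family pathway was described in cells labelled AGS, the name of an established human line derived from a gastric adenocarcinoma, out of 51103 genes in the deposited tables. They were found by gene name, and all 10 of 10 were present: the cytokine genes IL11, IL6 and LIF, the receptor genes IL11RA, IL6R, IL6ST, LIFR and OSMR, and the signalling genes STAT3 and SOCS3. The list was chosen by the FGF2 against NC fold changes of these same files, so the differences given here are descriptions and carry no test. Polyadenylated RNA was sequenced from 2 libraries labelled FGF2, from cells given recombinant human fibroblast growth factor 2 at 20 ng/mL and harvested after 24 h, and from 2 libraries labelled NC. The labels do not spell out NC, and the protocol text of the NC samples mentions FGF2 as well, so their actual treatment is not known here. Both groups were labelled as the same line, grown with fetal bovine serum and harvested at 24 h.

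Most cytokines of the IL-6 family signal through gp130, the shared receptor chain encoded by IL6ST. IL-11 and IL-6 first bind their own receptor chains, IL-11RA and IL-6R, and then bring gp130 molecules together. LIF pairs gp130 with the LIF receptor, and oncostatin M can pair it with the oncostatin M receptor. The paired chains activate JAK kinases, which phosphorylate STAT3, and STAT3 induces SOCS3, an inhibitor that acts back on gp130. In the stomach, gp130 and STAT3 signalling is known from mouse models of gastric tumour growth, in which IL-11 is a main ligand.

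The libraries held 13790335 and 27598608 counts for FGF2 and 14073340 and 27325697 counts for NC. In each group the count of library 1 exceeded that of library 2 at only 2 genes, of 22043 and 22485 genes with counts. For genes of 10 to 1000 counts, the mean chi-square of library 1 against library 2 was 0.856 for FGF2 and 0.807 for NC, under the value of 1 that separate reads give. Counts of library 1 above library 2 at so few genes arise when library 2 holds the reads of library 1. The chi-square by itself does not show this, as it also rises with spread beyond counting error. A group was therefore treated as 1 sample (n = 1). No replicate known to be separate stands behind any difference below. Where both libraries of a group lie on 1 side of the other group, this is not a repeat of the difference. As a check within a group, the reads were parted into library 1 and library 2 less library 1, called read sets here. A gene was called higher or lower in FGF2 when both FGF2 read sets lay beyond both NC read sets by 1.5-fold or more and the read sets averaged 50 counts or more, and a 1.2-fold bound was applied in the same way.

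The cell type label was compared with marker genes. The epithelial keratin gene KRT18 stood at 193 to 201 FPKM (counts per length of exon and per total of counted reads) and KRT8 at 191 to 270.3 FPKM over the 4 libraries. EPCAM, which encodes an epithelial adhesion protein, stood at only 0.518 to 1.19 FPKM and the E-cadherin gene CDH1 at 0.0235 to 0.196 FPKM. CLDN4 and CLDN7 stood at 0.386 to 0.654 and 0.143 to 0.175 FPKM. Of the 8 epithelial markers listed, 4 had enough counts for the rule, and EPCAM, CDH1, CLDN4 and CLDN7 did not. Of the 4 with enough counts, 1 was higher and 1 lower at 1.5-fold, beside 3.14% and 5.17% of 11000 genes. KRT19 was higher, at 47.6 FPKM in FGF2 library 2 and 27.3 in NC library 2. ELF3 was lower, at 0.166 and 1.80 FPKM, from 33 and 354 counts, and met the count minimum through NC. Of 8 gastric markers listed, 0 had enough counts for the rule. The gastric genes TFF1, GKN1 and GKN2 had 0 counts in all 4 libraries. In FGF2 library 2 and NC library 2, MUC6 had 39 and 8 counts, ANXA10 10 and 9, and CTSE 5 and 0. MUC5AC had 4 and 13 counts and TFF2 0 and 3. Of 10 fibroblast markers, only 3 had enough counts for the rule, namely COL1A1, PDGFRB and THY1. At 1.5-fold 0 of these 3 were higher and 2 lower, beside 3.14% and 5.17% of 11000 genes. The lower ones were COL1A1 (log2 fold change -0.72) and PDGFRB (-1.65). COL1A2 and FAP had 0 counts, and DCN, LUM, PDGFRA, ACTA2 and COL3A1 stood under the count minimum. In FGF2 library 2 and NC library 2, COL3A1 had 6 and 137 counts, LUM 0 and 12, and DCN 0 and 8. ACTA2 had 20 and 18 counts and PDGFRA 3 and 0. The summed level of the list was 84.1 to 84.4 FPKM in FGF2 and 141.6 to 144.8 FPKM in NC, most of it COL1A1. In that list PDGFRB stood at 5.96 and 6.29 FPKM in FGF2 and at 21.6 and 21.0 FPKM in NC, and THY1 at 18.2 and 18.0 FPKM against 18.1 and 18.9 FPKM. The identity of the line was not tested. The 8 immune markers summed to 0.447 to 1.21 FPKM and the 6 endothelial markers to 0.309 to 0.402 FPKM. IL11, IL6 and LIF are also made by fibroblasts, and the part of the fibroblast marker difference in the values below was not tested. In such bulk RNA, fewer cells of a type and less RNA per cell cannot be told apart.

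IL11 was the member that differed most. It encodes interleukin 11 (ENSG00000095752, GRCh38 chromosome 19, 55364389 to 55370463, minus strand). Its level was 20.5 and 20.2 FPKM in FGF2 libraries 1 and 2 and 2.31 and 2.75 FPKM in NC libraries 1 and 2. Both FGF2 values lay far above both NC values. From 1486 and 201 counts, the fold change was 7.76, a log2 fold change of 2.96 with a 95% counting interval of 2.74 to 3.18. The read sets gave 3.23 and 2.69, both outside that interval, which covers counting error only and is too narrow. IL11 ranked 13 from the top among the 11000 genes with enough counts, and its lowest FGF2 read set was 6.47-fold above its highest NC read set.

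The 250 bases before the annotated start of IL11 are shown because it is the member with the largest difference. Windows of the same length before RefSeq starts of the other members past the 1.5-fold bound, OSMR and LIFR, are shown beside it (RefSeq sequences, GRCh38.p14, 5′ to 3′ on the strand of the gene). They were searched on both strands for the AP-1 motif TGANTCA, the STAT motif TTCNNNGAA and the ETS motif CCGGAAGT, where N is any base, and capitals mark a match.
IL11, chr19:55370464-55370713, minus strand: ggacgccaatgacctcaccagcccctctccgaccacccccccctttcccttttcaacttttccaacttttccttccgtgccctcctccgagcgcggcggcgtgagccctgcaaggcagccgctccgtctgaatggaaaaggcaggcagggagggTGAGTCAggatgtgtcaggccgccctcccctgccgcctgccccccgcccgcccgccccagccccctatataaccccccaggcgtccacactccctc
OSMR, chr5:38845762-38846011, plus strand: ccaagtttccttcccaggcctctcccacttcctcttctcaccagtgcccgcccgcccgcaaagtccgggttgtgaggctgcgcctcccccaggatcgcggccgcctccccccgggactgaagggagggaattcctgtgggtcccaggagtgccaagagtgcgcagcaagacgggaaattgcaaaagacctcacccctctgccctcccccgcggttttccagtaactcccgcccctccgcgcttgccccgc
LIFR, chr5:38595406-38595655, minus strand: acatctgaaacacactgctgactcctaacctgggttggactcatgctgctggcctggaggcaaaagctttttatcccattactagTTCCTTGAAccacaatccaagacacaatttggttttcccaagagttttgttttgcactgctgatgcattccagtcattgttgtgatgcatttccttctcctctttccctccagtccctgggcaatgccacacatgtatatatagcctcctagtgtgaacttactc
LIFR, chr5:38557468-38557717, minus strand: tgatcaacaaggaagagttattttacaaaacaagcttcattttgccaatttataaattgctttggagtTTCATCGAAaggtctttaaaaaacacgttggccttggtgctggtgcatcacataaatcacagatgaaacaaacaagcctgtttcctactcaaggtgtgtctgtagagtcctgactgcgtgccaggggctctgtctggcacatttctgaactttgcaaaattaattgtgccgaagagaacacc

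The IL11 window held 1 AP-1 match, TGAGTCA, which begins 96 bases before the start. AP-1 is a dimer of FOS and JUN proteins downstream of ERK, which FGF receptors activate. Of all 35116 windows of this length, 6.57% held the AP-1 motif, 6.57% the STAT motif and 3.42% the ETS motif. In LIFR, for which RefSeq gives several starts, the 2 windows printed each held 1 STAT match, beginning 165 and 182 bases before their starts. The other LIFR window, chr5:38556647-38556896, held no match and is not printed. A total of 13 windows from 9 of the 10 members were searched. No other match was found in these windows, including the OSMR window, and no matches overlapped. A match is a string of letters and was not measured as a binding site.

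**Figure D1:**
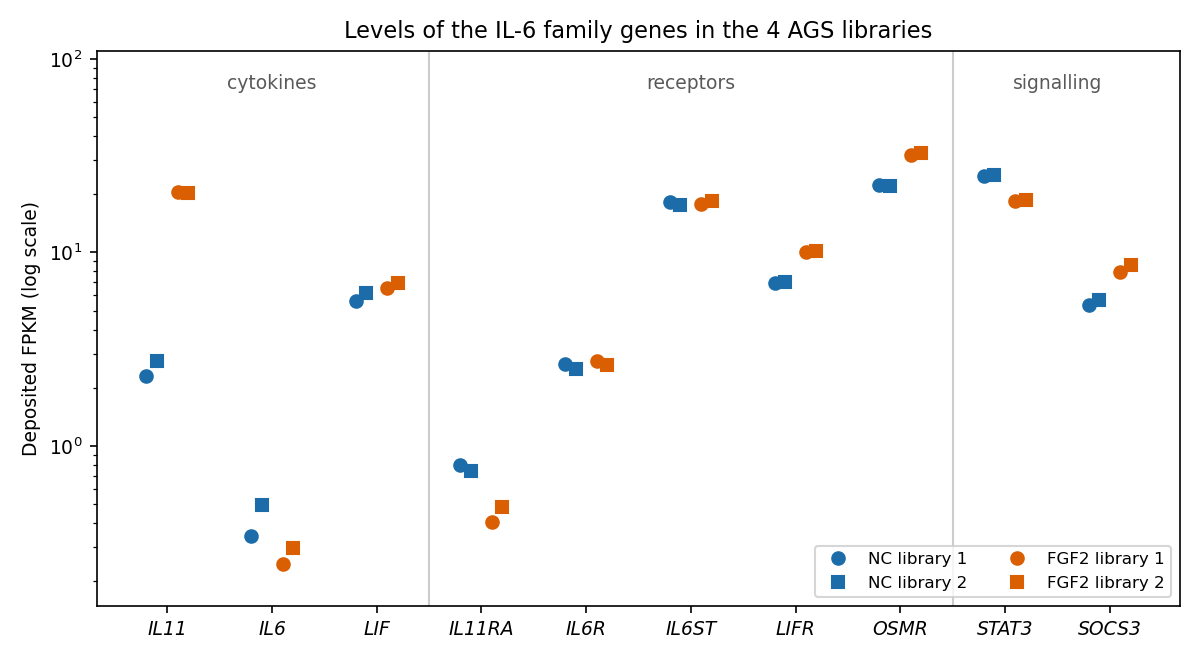
Deposited FPKM (y axis, log scale) of the 10 genes in the 4 libraries (circles library 1, squares library 2, blue NC, orange FGF2). IL11 stood at 2.31 and 2.75 FPKM in NC and 20.5 and 20.2 FPKM in FGF2, while IL6ST stood at 17.7 to 18.5 FPKM in all 4 libraries.

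LIF encodes leukemia inhibitory factor (ENSG00000128342, chromosome 22, 30240447 to 30246851), the ligand of LIFR and gp130. It stood at 6.58 and 6.95 FPKM in FGF2 libraries 1 and 2 and at 5.60 and 6.19 FPKM in NC. LIF had a log2 fold change of 0.25 (0.10 to 0.41), with 0.33 and 0.18 from the read sets. The FGF2 read sets lay above the NC read sets by a smallest fold of only 1.04, so LIF met neither bound, and with no scaling beyond the total count they overlapped. An exon share of 6.73% lies opposite LIF-AS1 and AC004264.1, and the library kit does not mark strand, so reads there cannot be told apart.

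IL6 itself was near the limit of detection. It encodes interleukin 6 (ENSG00000136244, chromosome 7, 22725884 to 22732002) and had 7 and 17 counts in FGF2 libraries 1 and 2 and 10 and 28 counts in NC. Its level was 0.245 and 0.298 FPKM against 0.343 and 0.495 FPKM. The interval of the log2 fold change of -0.63 ran from -1.61 to 0.27 and held 0, so no difference was detectable at this depth. IL6 also shares 20.7% of its exon sequence with genes on the opposite strand.

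The proportion of IL11 to LIF transcripts turned over between the groups. Per length, IL11 was 3.12 and 2.90 times LIF in the FGF2 libraries and 0.413 and 0.445 times LIF in the NC libraries. In these counts IL11 was thus the most abundant of the 3 cytokine transcripts in FGF2, and LIF in NC.

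Among the receptors, the chains that pair with gp130 for LIF and oncostatin M were higher in FGF2, and gp130 itself was not called. OSMR encodes the oncostatin M receptor (ENSG00000145623, chromosome 5, 38845858 to 38945596). Its level was 31.9 and 32.7 FPKM in FGF2 and 22.2 and 22.1 FPKM in NC, with no overlap between the groups. This is a log2 fold change of 0.65 (0.60 to 0.71), with 0.62 and 0.69 from the read sets.

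LIFR encodes the LIF receptor (ENSG00000113594, chromosome 5, 38474963 to 38608354). It stood at 9.99 and 10.2 FPKM in FGF2 and at 6.92 and 7.00 FPKM in NC, again without overlap. Its log2 fold change was 0.63 (0.55 to 0.71), and both read sets gave 0.63. The smallest fold between read sets was 1.54 for OSMR and 1.51 for LIFR, just inside the 1.5-fold bound. With scaling by total count alone they were 1.44 and 1.41, and neither gene passed that bound, though both passed 1.2-fold. OSMR was 3.15 to 3.21 times LIFR per length in the 4 libraries, so the transcripts kept their proportion while both stood higher in FGF2.

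IL6ST, the gp130 gene (ENSG00000134352, chromosome 5, 55935095 to 55994993), stood at 17.7 and 18.5 FPKM in FGF2 and at 18.2 and 17.7 FPKM in NC. These FPKM ranges overlap, and the TMM scaled read sets were apart by a smallest fold of only 1.04. The log2 fold change was 0.15 (0.09 to 0.21), but the read sets gave 0.06 and 0.24, a spread wider than the interval. Because OSMR was higher and IL6ST was not called, OSMR was 1.22 and 1.25 times IL6ST in NC and 1.80 and 1.77 times IL6ST in FGF2, as ratios of FPKM.

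The ligand-specific alpha chains had the lowest levels of the 5 receptor genes among the members. IL6R, which encodes the IL-6 receptor alpha chain (ENSG00000160712, chromosome 1, 154405193 to 154469450), stood at 2.74 and 2.62 FPKM in FGF2 and 2.66 and 2.50 FPKM in NC. Its log2 fold change was 0.15 (-0.04 to 0.34), and the groups overlapped.

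IL11RA, which encodes the IL-11 receptor alpha chain (ENSG00000137070, chromosome 9, 34650702 to 34661892), had only 24 and 57 counts in FGF2 and 48 and 87 counts in NC. Its level was 0.407 and 0.484 FPKM against 0.799 and 0.745 FPKM, lower in both FGF2 libraries. The log2 fold change of -0.53 had an interval of -1.05 to -0.04, the read sets gave -0.86 and -0.22, and the gene lay under the count minimum. It shares 17.4% of its exon sequence with GALT and AL162231.3 on the same strand. The transcript of the cytokine with the largest difference thus stood at 20.2 FPKM beside 0.484 FPKM for its alpha chain in FGF2 library 2.

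**Figure D2:**
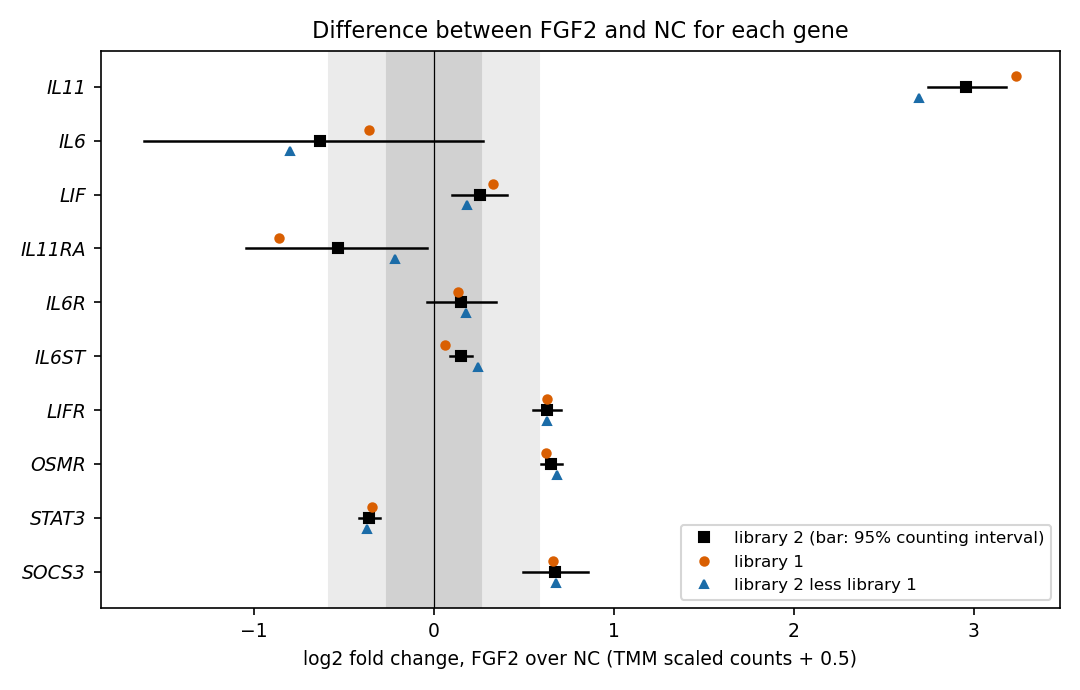
Log2 fold change of FGF2 over NC (x axis) for each gene from library 2 with its 95% counting interval (black), from library 1 (orange) and from library 2 less library 1 (blue), with bands at 1.2-fold and 1.5-fold. IL11 lies at 2.96, LIFR, OSMR and SOCS3 lie between 0.63 and 0.67, and STAT3 lies at -0.36.

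STAT3 and SOCS3 went opposite ways. STAT3, the transcription factor downstream of gp130 (ENSG00000168610, chromosome 17, 42313324 to 42388568), stood at 18.4 and 18.5 FPKM in FGF2 and at 24.9 and 25.2 FPKM in NC. Both FGF2 values lay below both NC values. The log2 fold change was -0.36 (-0.41 to -0.30), with -0.34 and -0.37 from the read sets, and the gene was lower by the 1.2-fold bound but not by the 1.5-fold bound.

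SOCS3, the feedback inhibitor (ENSG00000184557, chromosome 17, 78356778 to 78360077), stood at 7.90 and 8.57 FPKM in FGF2 and at 5.33 and 5.70 FPKM in NC, with no overlap. Its log2 fold change of 0.67 (0.50 to 0.85) was no smaller than that of OSMR, but its smallest fold between read sets was 1.39, so it passed 1.2-fold and not 1.5-fold. It passed 1.5-fold when NC library 2 was left out and when the libraries of a group were averaged. Per length, STAT3 was 2.33 and 2.16 times SOCS3 in FGF2 and 4.68 and 4.43 times SOCS3 in NC.

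Of the 10 members, 8 had enough counts for the rule. At 1.5-fold, 3 were higher (IL11, OSMR and LIFR) and 0 lower, where 3.14% of the 11000 genes were higher and 5.17% lower. At 1.2-fold, 4 were higher and 1 lower, where 12.7% of genes were higher and 13.4% lower. The members were listed from this comparison, so nothing is read from these shares. IL6R, IL6ST and LIF lay between the 1.2-fold bounds. The median log2 fold change of the 8 was 0.44 and that of the 11000 genes 0.03.

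The order of the levels per length differed between the groups. In NC library 2 it ran from STAT3 (25.2 FPKM) through OSMR (22.1), IL6ST (17.7), LIFR (7.00), LIF (6.19), SOCS3 (5.70), IL11 (2.75), IL6R (2.50) and IL11RA (0.745) to IL6 (0.495). The neighbours LIF and SOCS3, IL11 and IL6R, and IL11RA and IL6 did not differ beyond their read sets or counting intervals. In FGF2 library 2 OSMR came first (32.7), followed by IL11 (20.2), STAT3 (18.5), IL6ST (18.5), LIFR (10.2), SOCS3 (8.57), LIF (6.95), IL6R (2.62), IL11RA (0.484) and IL6 (0.298). There only STAT3 and IL6ST, and IL11RA and IL6, did not differ in that way. The counting interval of IL11 began at 19.15 FPKM and that of STAT3 ended at 19.09 FPKM. As these intervals are too narrow, the order of IL11 and STAT3 in FGF2 is not settled. Among the 15030 genes kept by the low count filter, the level of IL11 was at percentile 41.6 in NC and at percentile 84.1 in FGF2.

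Other genes of the pathway were taken list by list. The lists were drawn up with earlier results of these data known, and their counts describe these 2 samples. Of 8 other cytokine genes of the family, only CLCF1 had enough counts, at 5.14 and 5.21 FPKM in FGF2 and 5.07 and 5.11 FPKM in NC (log2 fold change 0.11, -0.13 to 0.36). OSM, the gene of oncostatin M, had 0 counts in all 4 libraries. A count of 0 allows up to 3 counts, or 0.0514 FPKM in FGF2 library 2 and 0.0519 FPKM in NC library 2. IL27 and IL31 also had 0 counts. CTF1, the cardiotrophin gene, had 59 counts against 128, under the count minimum (-1.04, -1.52 to -0.59). Its read sets gave -0.67 and -1.44. Of 3 other receptor genes, IL27RA alone had enough counts and stood at 7.28 against 7.33 FPKM.

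Of 10 JAK kinase and other STAT genes listed, 7 had enough counts. At 1.5-fold 0 passed in either direction, beside 3.14% of all 11000 genes higher and 5.17% lower. At 1.2-fold 0 were higher and 2 lower, beside 12.7% and 13.4% of all 11000 genes. The lower ones, named after their values were seen, were TYK2, a JAK kinase (-0.32, -0.40 to -0.23), and STAT2, which acts in interferon signalling (-0.55, -0.70 to -0.40). The median of the 7 was -0.28. JAK2, with enough counts, had 0.41 (0.16 to 0.66), with 0.21 and 0.67 from the read sets, and passed neither bound. Under the count minimum, STAT5A had 55 counts in FGF2 library 2 and 130 in NC library 2 (-1.16, -1.65 to -0.70). JAK3, a JAK kinase of blood cells also under the minimum, had 22 and 52 (-1.15, -1.96 to -0.42). The read sets gave -1.66 and -0.66 for STAT5A and -0.31 and -1.69 for JAK3, not all inside these intervals. Genes of other brakes on the pathway, namely other SOCS and PIAS proteins and phosphatases, had 12 of 15 with enough counts and 0 past 1.5-fold, with a median of 0.12. Only PTPN1, a phosphatase of JAK kinases, passed 1.2-fold (0.28, 0.23 to 0.33), where 12.7% of all genes were higher. It was also named after its value was seen. SOCS3 was thus the only SOCS gene with enough counts that passed 1.2-fold.

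Proteases that shed receptor alpha chains were close to NC. ADAM10, ADAM17 and the ADAM17 partners RHBDF1 and RHBDF2 all had enough counts, and 0 passed 1.5-fold. ADAM10 had a log2 fold change of -0.04 (-0.11 to 0.03) and ADAM17 of -0.08 (-0.19 to 0.03). RHBDF1, the 1 gene past 1.2-fold in this list, was lower at -0.58 (-0.71 to -0.46), where 13.4% of all genes were lower.

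Genes that textbooks give as STAT3 targets went both ways. Of 30 listed, 19 had enough counts, and at 1.5-fold 2 were higher, 3 lower and 14 neither, with a median of 0.25. Over all 11000 genes 3.14% were higher and 5.17% lower. The higher ones were CCND1, the cyclin D1 gene (1.43, 1.39 to 1.47), and VEGFA, an angiogenic factor gene (1.14, 1.04 to 1.23). Both are also known targets of other pathways, and 10.3% of the CCND1 exon sequence lies opposite another gene.

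The lower ones were CEBPD, SAA1 and NNMT. CEBPD encodes a transcription factor of the acute phase response and stood at 5.33 and 5.71 FPKM in FGF2 and at 16.2 and 15.9 FPKM in NC (-1.39, -1.58 to -1.22). SAA1 encodes serum amyloid A and stood at 6.01 and 5.96 FPKM against 13.9 and 15.9 FPKM (-1.33, -1.63 to -1.03). SAA1 reads can be split with its near-identical copy SAA2, which had 7 counts in FGF2 library 2 and 68 in NC library 2. NNMT, a methyltransferase gene, stood at 14.0 and 15.3 FPKM against 29.5 and 29.4 FPKM (-0.85, -0.95 to -0.75). All 3 were lower in both FGF2 libraries, which were treated as 1 sample. At 1.2-fold, 7 of the 19 were higher and 4 lower, beside 12.7% and 13.4% of all 11000 genes. The liver acute phase genes CRP, FGA, FGB, FGG, HP and SERPINA3, and REG1A and REG3A, had 0 counts in all 4 libraries.

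**Figure D3:**
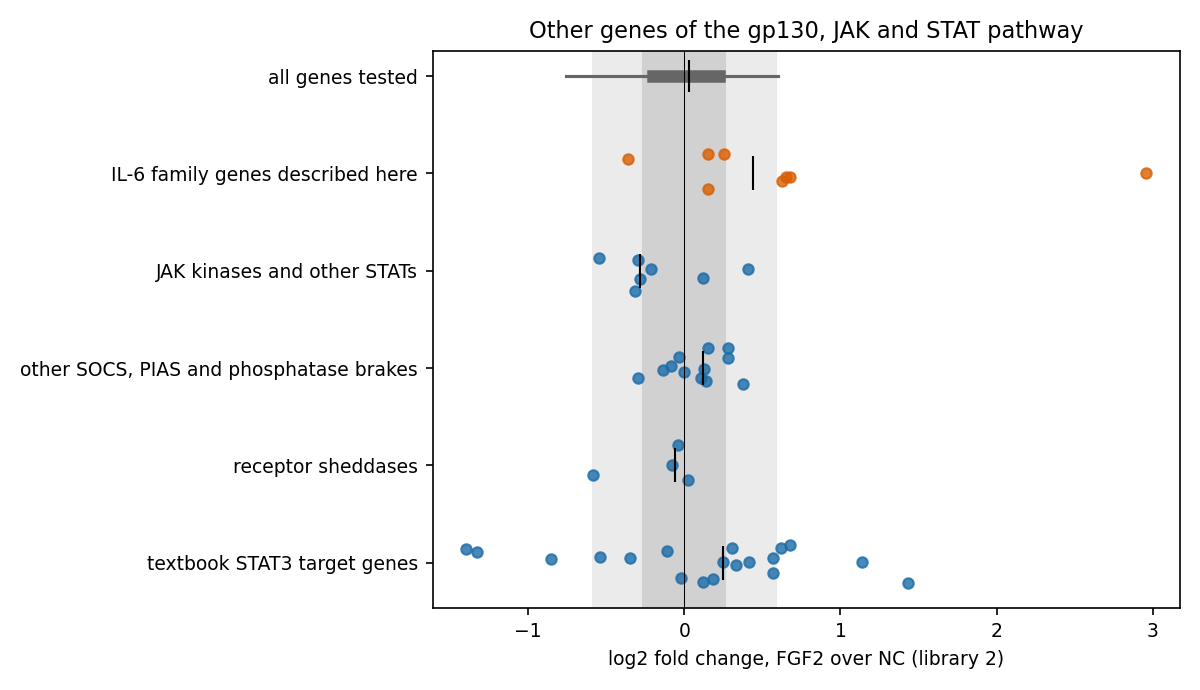
Log2 fold change of FGF2 over NC from library 2 (x axis) for genes with enough counts in each list (points, ticks at the median), with bands at 1.2-fold and 1.5-fold, and all 11000 genes as a bar from the 25th to the 75th percentile and a line from the 5th to the 95th. STAT3 target genes spread from -1.39 to 1.43, while JAK and STAT genes lay between -0.55 and 0.41. Lists with 1 such gene are not drawn.

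The genes nearest to IL11 were found among 10459 other protein-coding genes with enough counts, by the Euclidean distance in the log2 fold changes of the 2 read sets. With 2 samples this likeness is one of size of difference only. The 5 nearest were KRTAP2-3, a keratin-associated protein gene (distance 0.17), ITGA2, the integrin alpha 2 chain gene (0.20), PLAUR, the urokinase receptor gene (0.28), TGM2, a transglutaminase gene (0.48), and SPRY4, a feedback inhibitor gene of receptor kinase signalling (0.60). ITGA2 stood at 1.09 and 1.15 FPKM in FGF2 and at 0.135 and 0.171 FPKM in NC, a log2 fold change of 2.82 (2.33 to 3.37). KRTAP2-3 stood at 22.1 and 24.4 FPKM against 2.27 and 3.09 FPKM, close to the levels of IL11 in both groups. ITGA2 and KRTAP2-3 met the count minimum through FGF2. The read sets of ITGA2 held 119 and 132 counts in FGF2 and only 15 and 22 in NC. Those of KRTAP2-3 held 267 and 323 counts in FGF2 and 28 and 46 in NC. IL11 had 87 and 114 counts in the NC read sets.

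**Figure D4:**
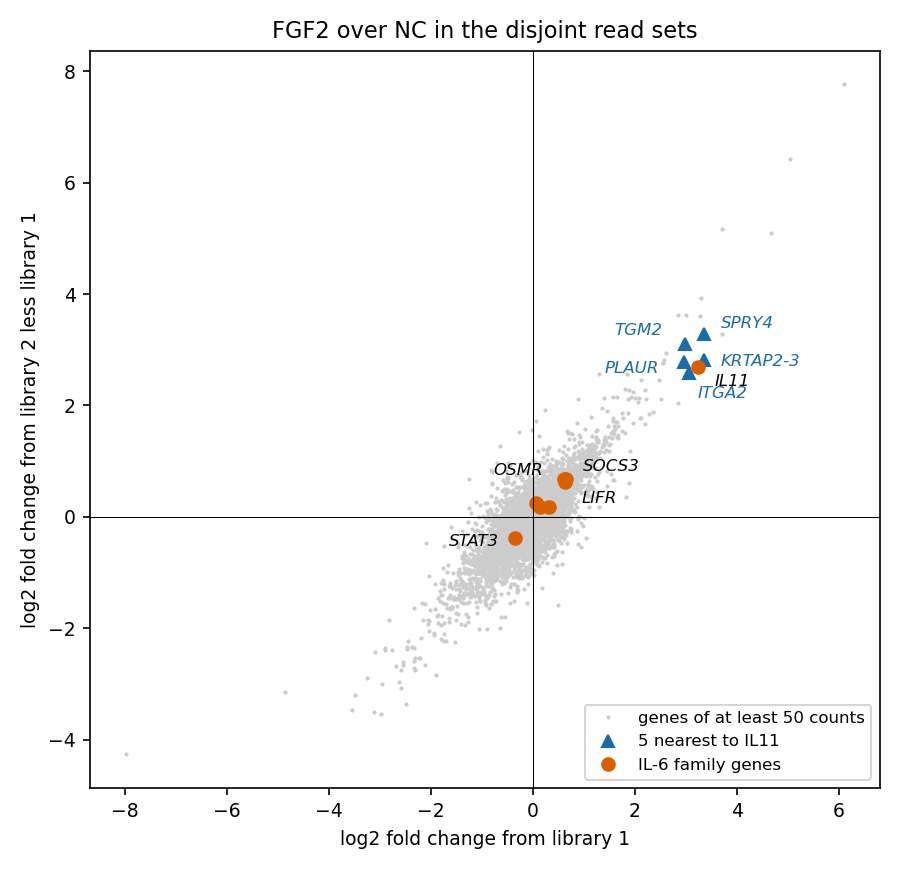
Log2 fold change of FGF2 over NC from library 1 (x axis) and from library 2 less library 1 (y axis) for 11000 genes (grey), the 8 IL-6 family genes with enough counts (orange) and the 5 genes nearest to IL11 (blue). IL11 lies at 3.23 and 2.69, away from the other members, and LIFR, OSMR and SOCS3 lie together between 0.62 and 0.69 on both axes.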

How the data were processed

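Polyadenylated RNA of AGS cells was measured in 4 libraries made with a NEBNext Ultra kit, per the labels' protocols. The authors deposited raw read counts and FPKM values for 51103 genes per library. Per the submitters' processing notes the tools were HISAT2 and HTSeq 0.13.5 and the build GRCh38. The annotation release and strand setting are not stated. For all 10 genes the length implied by the deposited FPKM equalled the merged exon length in GENCODE 29, which gives the coordinates.

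The members and lists were chosen with earlier results of these data known. Because library 2 of each group has the counts of a library that holds library 1, no test was the main result. Counts were scaled by TMM in edgeR 4.0.16 (R 4.3.3) over the 15030 genes kept by filterByExpr, of which 11000 averaged 50 or more counts over the read sets. Fold changes are log2 ratios of scaled counts of both libraries 2, with 0.5 added. Each 95% interval is an exact binomial one (Clopper-Pearson) and covers counting error only. Between the disjoint read sets the chi-square per gene under 1000 counts was 2.42 for FGF2 and 2.46 for NC, so the intervals are too narrow. The named genes are the 10 members, up to 3 genes per list and direction past 1.5-fold, and the 5 nearest to IL11. Other genes of the lists are named to account for each list and were chosen after their values were seen. Alternatives were other scalings, bounds and filters, log2(FPKM + 1), single libraries, edgeR's quasi-likelihood test and DESeq2 1.42.0.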

Additional observations from a re-analysis of the deposited data

How the results depend on the processing

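Of the 10 members, 0 changed the sign of the log2 fold change in 11 alternatives each, 2 of which (library 1 only, and library 2 less library 1) were chosen after seeing the data. Leaving out library 1 of either group returns the same value by construction, since fold changes come from library 2. IL11 ranged from 2.49 to 3.23, OSMR from 0.55 to 0.69, LIFR from 0.48 to 0.64, SOCS3 from 0.51 to 0.76 and STAT3 from -0.44 to -0.34. The 3 members higher at 1.5-fold became 1 (IL11) with total count scaling, with log2(FPKM + 1) and with a 2-fold bound. The 345 higher and 569 lower genes became 264 and 718 with total count scaling, 217 higher with log2(FPKM + 1), and 122 and 179 at 2-fold. They were 1402 and 1471 at 1.2-fold, with 1 member lower. With total count scaling and 1.2-fold together, also chosen after seeing the data, 932 genes were higher and 1933 lower, with 1 member lower (STAT3). Averaging the libraries gave 607 and 911 genes, and a count minimum of 10 gave 936 lower. Leaving out 1 library gave 3 to 4 members and 447 to 485 genes higher, and 687 to 779 genes lower. The tests treat libraries that share reads as replicates, so their counts have no meaning for the conditions. At an adjusted p under 0.05, edgeR called 4679 genes higher and 4697 lower (6 and 2 members), the fit with a replicate block 4685 and 4688 (6 and 2 members) and DESeq2 3223 and 2812 (5 and 1 members). Across genes, the deviations of libraries with the same number correlated at -0.0122, from which no pairing can be read because the libraries share reads. Total count scaling changed 0 of the counts at 1.5-fold in the pathway lists. Depth limits IL6 and IL11RA, the 2 members under the count minimum.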

Other observations

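LIFR and OSMR are neighbours on chromosome 5, on opposite strands, with 237503 bases between them in GENCODE 29. From LIFR through OSMR, both genes included, the other annotated genes that passed the low count filter were both noncoding and at low counts. LIFR-AS1, which overlaps LIFR, had 28 counts in FGF2 library 2 and 25 in NC library 2, and OSMR-AS1 had 29 and 29. The log2 fold change of LIFR-AS1 was 0.97 from library 1 and -1.04 from library 2 less library 1, so no direction was detectable.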
